A study of Mus musculus with 21 samples.

Results

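Groups of mouse embryonic stem cell libraries in the medium labelled CH+LIF, HP and LP, were compared across all genes, with 3 replicates in each and therefore 6 of the 21 libraries of the study. They were chosen by their labels alone, and every gene row of their count tables was read. The cells were E14Tg2a, a male line of 129 background in which 1 allele of the Rex1 (Zfp42) gene carries a destabilised green fluorescent protein. All groups shared this line, this reporter and 1 growth protocol: NDiff227 basal medium with CHIR99021 and PD0325901 for a week, followed by passages at which inhibitors and LIF were given and withdrawn in turn. LIF is the cytokine that signals through STAT3, and CH is CHIR99021, an inhibitor of the kinase GSK3 that raises Wnt/beta-catenin signalling. Culture times in the study ran from zero passage through 1 month to 2 months. Neither LP nor HP is tied to a time by the labels, so both serve only as names here. The medium at harvest is known from the group name alone, and E14Tg2a is a single clonal line. Nothing in the labels says that replicates came from separate cultures, so p-values measure the spread between these libraries, which may be technical.

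Mouse embryonic stem cells hold the naive pluripotent state through a network of transcription factors that includes Pou5f1, Sox2, Nanog, Esrrb, Klf4 and Tfcp2l1. LIF and inhibition of GSK3 feed this network from different sides: STAT3 induces Klf4 and Tfcp2l1, and stabilised beta-catenin relieves the repressor Tcf7l1 from genes such as Esrrb while it also turns on Wnt feedback genes. In long culture such cells are known for drift in imprinted genes, DNA methylation and p53 activity, and for gains of whole chromosomes.

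Counts assigned to genes lay between 1184797 and 2084432 in the 6 libraries, and levels are given as CPM, the count divided by the TMM-scaled library size and expressed per 1e6 counts. Pluripotency markers matched the labelled cell type: Sox2 had 512 to 718 CPM, Nanog 146.6 to 244 CPM and Pou5f1 26.7 to 58.4 CPM across the 6 libraries. Summed levels of the other cell types' markers were 26.7 to 38 CPM in LP and 27.9 to 38.1 CPM in HP for 12 primitive endoderm genes, and 7.59 to 12.1 CPM in LP and 11.9 to 21.4 CPM in HP for 13 mesendoderm genes. For 12 trophoblast genes the sums were 46 to 96.4 CPM in LP and 48.7 to 68.5 CPM in HP, and Cdx2 and Elf5 had no counts. The sums were larger for 13 neural ectoderm genes, 685 to 963 CPM in LP and 976 to 1064 CPM in HP, with no overlap. Of the 7 neural genes that could be tested, 4 had an estimate above 0 and 3 below. The 12 fibroblast and feeder genes summed to 601 to 1145 CPM in LP and 463 to 769 CPM in HP, mostly from Vim and Fn1, which stem cells also express, while Dcn had no counts and Col3a1 had 1 count in all. The part of these cell types in the results was not tested. Mitochondrial transcripts took 1.97 to 4.84% of gene counts in LP, and 3.62%, 5.18% and 9.84% in HP replicates 1, 2 and 3. In bulk RNA, fewer cells of a type and less RNA per cell cannot be told apart.

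In the fit of all 21 libraries, HP and LP in CH+LIF differed in 1 gene of the 10643 tested, which is 0.0094% of them. The count depended on the processing: it was 21 without a filter on low counts, 15 in the 6 libraries alone, 15 with DESeq2, 9 without the 2i+LIF libraries that stood apart and 0 to 2 with 1 library left out. That gene was Crxos (ENSMUSG00000074365, chromosome 7, 15882617 to 15904020 on the plus strand of GRCm38, overlapping no other listed gene), which encodes a homeobox protein of the preimplantation embryo and of embryonic stem cells. It had 9.69, 16.95 and 12.9 CPM in LP replicates 1, 2 and 3, and 158.3, 113 and 73.9 CPM in HP replicates 1, 2 and 3. Every HP library lay above every LP library, and the lowest HP value was more than 4 times the highest LP value. By edgeR's quasi-likelihood test over all 21 libraries the log2 fold change was 3.13 (SE 0.454, 95% interval 2.20 to 4.06), an 8.73-fold difference, at an adjusted p of 0.00561. The call depended on single libraries. With 1 library left out the log2 fold change stayed between 2.83 and 3.37, but the adjusted p was 0.0668 without HP replicate 1, 0.201 without LP replicate 1, 0.053 without LP replicate 2 and 0.0657 without LP replicate 3.

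Crxos also stood higher in HP than in LP in both other media of the study, which share no library with this comparison. Its mean was 7.86 ± 3.42 CPM (SD, n = 3) in LIF LP and 237 ± 56 CPM in LIF HP, a log2 fold change of 4.88 with an adjusted p of 1.81e-06. In 2i+LIF its LP libraries averaged 34.4 ± 16.9 CPM and its HP libraries 549 ± 242 CPM, a log2 fold change of 4.01 with an adjusted p of 2.42e-05, and at the start of the culture, labelled 2i+LIF PO, it was 70.9 ± 28.6 CPM. Its change in CH+LIF did not differ past the threshold from that in LIF (interaction adjusted p = 0.293) or in 2i+LIF (adjusted p = 0.896), where the estimated differences were 1.75 (SE 0.653) and 0.88 (SE 0.623) on the log2 scale. The order of the group means was LIF LP, CH+LIF LP, 2i+LIF LP, 2i+LIF PO, CH+LIF HP, LIF HP and 2i+LIF HP. Spreads of 1 SD overlapped between neighbours up to CH+LIF LP and again from 2i+LIF LP to CH+LIF HP.

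The genes around Crxos did not move with it past the threshold. Of 20 neighbouring genes and members of the related Obox homeobox family, 10 had no counts in the 6 libraries, among them Crx, which codes for the photoreceptor homeobox factor and lies next to Crxos. The 6 that could be tested had log2 fold changes of -0.37 to 1.26 with a median of 0.01. Nop53, a ribosome assembly factor, had 258, 294 and 364 CPM in LP and 252, 233 and 231 CPM in HP, a log2 fold change of -0.35 (SE 0.32) with an upper bound of 2.02-fold. The 5 genes whose mean log2 CPM over the 7 groups correlated best with Crxos were Ifi35, Ccl25, Pla2g15, Flad1 and Ctsa. Ifi35, an interferon-induced protein, was at the top with r = 0.993 over 7 groups. These genes were chosen for this likeness over groups that include CH+LIF HP and LP, so their change in CH+LIF is no separate result.

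The 250 bases before the first RefSeq start of Crxos are shown because it is the gene that was called, and those of Sp5 because it came next in the same direction. Capitals mark CTTTGAT, the core bound by TCF/LEF factors, the DNA-binding partners of beta-catenin. Both sequences are from RefSeq on GRCm38.p6, read 5′ to 3′, for chr7:15882367-15882616 and chr2:70474673-70474922, both on the plus strand.
Crxos: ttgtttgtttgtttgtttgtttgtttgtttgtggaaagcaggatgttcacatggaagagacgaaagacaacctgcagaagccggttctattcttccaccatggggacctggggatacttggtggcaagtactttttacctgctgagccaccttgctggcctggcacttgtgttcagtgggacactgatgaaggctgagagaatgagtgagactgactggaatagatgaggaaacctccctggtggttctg
Sp5: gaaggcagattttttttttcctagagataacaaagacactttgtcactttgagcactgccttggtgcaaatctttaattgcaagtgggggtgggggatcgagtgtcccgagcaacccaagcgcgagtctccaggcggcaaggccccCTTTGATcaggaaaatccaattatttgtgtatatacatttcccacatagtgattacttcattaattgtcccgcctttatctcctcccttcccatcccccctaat
CTTTGAT or CTTTGAA on either strand was found in 8.65% of 32851 RefSeq windows from 250 bases before to 50 bases after a start. The Sp5 window held CTTTGAT 104 bases before its start, and none of the 3 Crxos windows held either form.

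No other gene passed the adjusted threshold, and the genes of smallest p are given with their values. They were taken from genes whose groups did not overlap, so their separation is part of the choice. At an unadjusted p under 0.05, which is not a call, stood 571 genes (5.37% of those tested), 305 of them higher in HP (2.87%) and 266 lower (2.5%). Groups did not overlap for 846 genes that were higher in HP (7.95%) and 759 that were lower (7.13%).

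Among genes higher in HP, Sp5 (chromosome 2, 70474923 to 70477729), a zinc finger factor that beta-catenin induces directly, had the second smallest p. It had 0.969, 0.605 and 1.52 CPM in LP replicates 1, 2 and 3, and 46.7, 33.4 and 17.5 CPM in the HP replicates. The HP libraries were all above the LP libraries, which held 5 counts in total against 165 in HP. Its log2 fold change was 4.94 (SE 1.15) with an adjusted p of 0.0671 in edgeR, and it passed under 7 of 18 alternative settings. Pglyrp1, which codes for a peptidoglycan recognition protein, had 1.94, 4.84 and 11.4 CPM in LP and 40.9, 47.7 and 27.4 CPM in HP (adjusted p = 0.212 in edgeR). Rbm44, an RNA-binding protein of germ cells, had 1.45, 4.24 and 2.28 CPM in LP and 18.8, 20.5 and 17.5 CPM in HP (adjusted p = 0.212 in edgeR). The 3 HP values of Rbm44 lay close together, whereas Tnni1, a slow muscle troponin, ranged in HP from 2.29 CPM in replicate 3 to 19.5 CPM in replicate 1, against 0.605 to 1.52 CPM in LP. Tex19.2, a germline gene, had 11.1, 5.45 and 5.32 CPM in LP and 50.6, 31.5 and 17.5 CPM in HP. The others with the smallest p in this direction were Cttnbp2, Ube2dnl1, Slc16a9 and Plagl1. Of these, Ube2dnl1 had 1 count in LP and 37 in HP, a ratio of 36.5 with a 95% counting interval of 6.16 to 1480. Cttnbp2 rested on 0.484 to 1.52 CPM in LP and 11.7 to 19 CPM in HP.

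**Figure D1:**
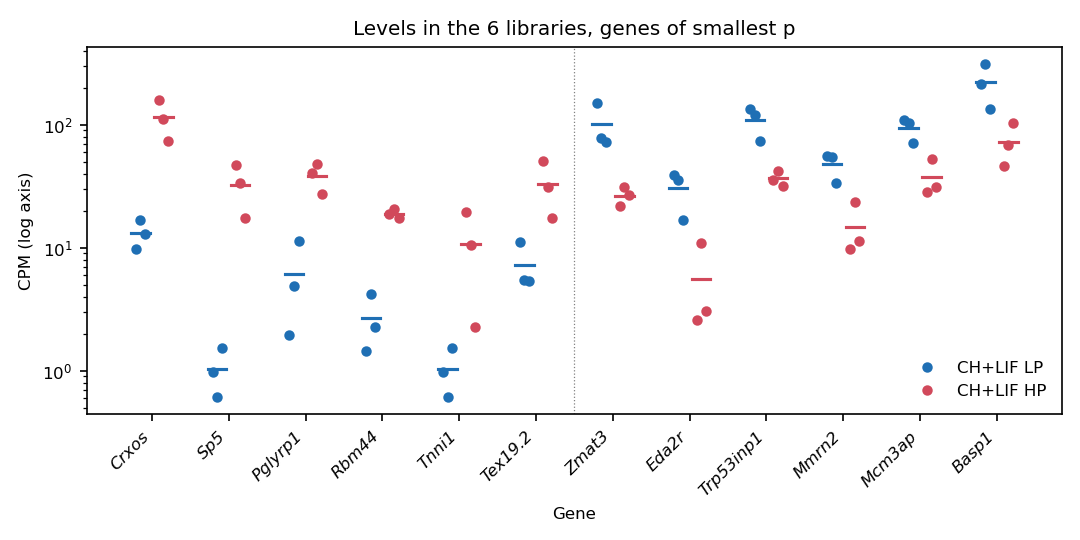
CPM (log axis) in each of the 3 LP (blue) and 3 HP (red) libraries of CH+LIF, with horizontal bars at the group means, for the 6 higher and 6 lower genes with the smallest p among those whose groups do not overlap. Of these 12 genes Crxos alone passed the adjusted threshold, and the Sp5 libraries lay at 0.605 to 1.52 CPM in LP and 17.5 to 46.7 CPM in HP.

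The 3 genes lower in HP with the smallest p, Zmat3, Eda2r and Trp53inp1, are listed targets of p53, the transcription factor that answers DNA damage and other stress by inducing cell cycle inhibitors, its own antagonist Mdm2 and apoptosis genes. Zmat3 (chromosome 3, 32334792 to 32366014), a p53-induced RNA-binding zinc finger protein, had 151.2, 78.7 and 72.9 CPM in LP and 22.1, 31 and 26.7 CPM in HP. The groups were apart, with LP replicate 1 standing above the other LP libraries. Its log2 fold change was -1.92 (SE 0.346, 95% interval -2.64 to -1.21) and its adjusted p was 0.0548 in edgeR, just short of the threshold, which it passed under 6 of 18 alternative settings. Eda2r (chromosome X, 97333840 to 97377216), a receptor of the tumour necrosis factor family, had 38.8, 35.7 and 16.7 CPM in LP and 2.6, 11 and 3.05 CPM in HP, with a log2 fold change of -2.38 (SE 0.5) and an adjusted p of 0.156. Without HP replicate 2, its highest HP library, the log2 fold change of Eda2r was -3.41 (adjusted p = 0.0273 in edgeR). It passed under 4 of 18 alternative settings. Trp53inp1 (chromosome 4, 11156431 to 11174379), a nuclear cofactor of p53, had 136, 119.8 and 74.4 CPM in LP and 35.7, 42.5 and 32 CPM in HP, with a log2 fold change of -1.58 (SE 0.339) and an adjusted p of 0.205. All 3 were lower in each HP library than in each LP library, as the choice of genes required. The other lower genes of this rank were Mmrn2, Mcm3ap, Basp1, Tob1, Psrc1, D16Ertd472e and Rap2b, with log2 fold changes of -1.93 to -1.28. Basp1, a membrane-bound protein of the cell cortex, had 216, 315 and 134 CPM in LP and 46.1, 69.2 and 104 CPM in HP. Tob1, an antiproliferative protein, had 31, 29.7 and 10.6 CPM in LP and 3.24, 9.06 and 6.09 CPM in HP.

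Of 16 listed p53 genes 15 could be tested and none was called. All 15 had a log2 fold change below 0, with a median of -1.11 against 0 for all genes tested. At an unadjusted p under 0.05, 8 of the 15 were lower, beside 2.5% of all genes, and in 10 the groups did not overlap with HP lower, beside 7.13% of all genes. The list includes Zmat3, Eda2r and Trp53inp1, described above for their small p. This list and those below were chosen with earlier results of these data known, so such shares are descriptions and not tests. In the other media, which share no library with this comparison, the list's median was -1.36 in 2i+LIF, with 6 of the 15 genes called (3.67% of all genes), and -0.29 in LIF, with 2 called (9.96%). Cdkn1a, the inhibitor of cyclin-dependent kinases that p53 induces, had 154.1, 256 and 258 CPM in LP and 98.6, 135 and 75.4 CPM in HP (log2 fold change -1.11, SE 0.36). Its groups did not overlap. Mdm2, the ubiquitin ligase that degrades p53, averaged 110.1 ± 30.6 CPM (SD, n = 3) in LP and 52.1 ± 13.7 CPM in HP, and its groups did not overlap. Ccng1, a cyclin that p53 induces, had 182, 109.6 and 94.9 CPM in LP and 36.3, 64.4 and 57.1 CPM in HP. Phlda3, an inhibitor of AKT, had 32.7 to 59.3 CPM in LP and 17.5 to 21 CPM in HP, and Sesn2, a stress sensor for amino acids, had 46 to 69.1 CPM in LP and 30.5 to 44.4 CPM in HP. The p53 gene itself, Trp53, had 22.8, 51.5 and 38 CPM in LP and 33.1, 21.5 and 54.8 CPM in HP, with overlapping groups, a log2 fold change of -0.04 and an upper bound of 2.37-fold. The apoptosis genes Bbc3, Bax and Pmaip1 had log2 fold changes of -1.37, -0.79 and -0.20. Summed over the list, levels were 937 to 1156 CPM in LP and 420 to 613 CPM in HP.

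Promoters of Cdkn1a, Ccng1 and Mdm2 are shown because, of the 7 genes with a match to the p53 response element decamer (in capitals), these were lower in HP at an unadjusted p under 0.05. The others with a match were Aen, Bax, Gtse1 and Trp53, with log2 fold changes of -1.21, -0.79, -0.63 and -0.04. RefSeq windows were found for 13 of the 16 genes, and 8 of their 18 windows held a decamer on either strand, beside 8.36% of all 32851 windows. Both decamers of Cdkn1a lay in the same window, at a spacing of 0 to 13 bases, as in 0.0731% of all windows. The sequences are the 250 bases before the start on GRCm38.p6, from chr17:29090729-29090978 on the plus strand, chr11:40755287-40755536 on the minus strand and chr10:117710759-117711008 on the minus strand.
Cdkn1a: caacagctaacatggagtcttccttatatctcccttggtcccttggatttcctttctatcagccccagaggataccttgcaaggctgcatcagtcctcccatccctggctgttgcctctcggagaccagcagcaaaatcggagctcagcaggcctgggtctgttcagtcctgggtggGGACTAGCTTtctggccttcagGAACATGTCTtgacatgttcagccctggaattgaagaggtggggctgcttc
Ccng1: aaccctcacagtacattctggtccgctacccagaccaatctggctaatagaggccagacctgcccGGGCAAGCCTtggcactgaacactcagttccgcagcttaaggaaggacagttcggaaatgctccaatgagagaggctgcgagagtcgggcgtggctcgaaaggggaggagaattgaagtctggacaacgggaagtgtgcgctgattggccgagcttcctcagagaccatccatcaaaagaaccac
Mdm2: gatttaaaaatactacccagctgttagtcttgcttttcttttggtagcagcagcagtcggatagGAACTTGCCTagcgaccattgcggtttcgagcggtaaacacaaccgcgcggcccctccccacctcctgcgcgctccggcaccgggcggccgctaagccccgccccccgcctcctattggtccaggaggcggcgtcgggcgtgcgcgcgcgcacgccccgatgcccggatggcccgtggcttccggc
No decamer was found in the windows of Eda2r, Phlda3 or Sesn2, and Zmat3 and Trp53inp1 had no window. A match is a run of letters and was not measured as a binding site here.

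**Figure D2:**
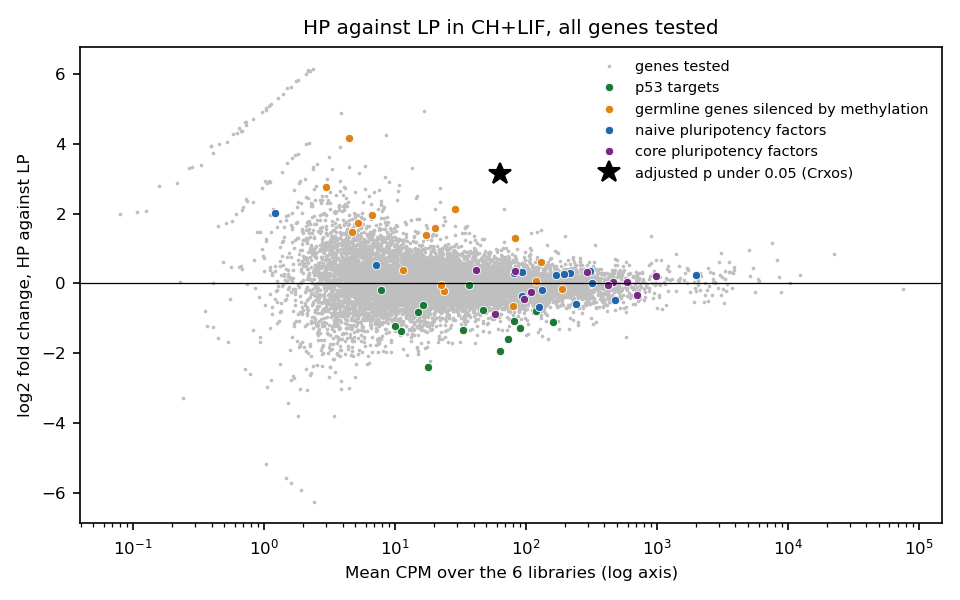
log2 fold change of HP against LP (vertical axis) by mean CPM over the 6 CH+LIF libraries (horizontal log axis) for genes tested with counts in these libraries (grey), with 4 gene lists in colour and Crxos as a star. The 15 tested p53 genes lie below 0, with a median of -1.11, and the pluripotency genes lie on both sides of 0.

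In germline genes that promoter methylation is known to silence, most estimates were above 0, again without a call. Of 20 listed genes 16 were tested, with a median log2 fold change of 1.34, 12 had an estimate above 0 and 4 below, and 8 were higher at an unadjusted p under 0.05 (2.87% of all genes). In 10 the groups did not overlap, all higher in HP (7.95%). Without LP replicate 3 this median was 0.90. In a fit of the 6 libraries alone it was 0.63, over fewer genes, because the filter on low counts there left out Mov10l1, among others. Summed over the 20 listed genes, levels were 570.3 to 734.5 CPM in LP and 724.2 to 1020 CPM in HP, which overlapped. Taf7l, a germ cell subunit of the general transcription machinery, had 4.36, 16.3 and 12.2 CPM in LP and 50.6, 44.8 and 46.5 CPM in HP (log2 fold change 2.13, SE 0.55). Dazl, an RNA-binding protein of germ cells, had 73.2, 53.9 and 16 CPM in LP and 134, 106 and 114 CPM in HP. Its groups did not overlap, and LP replicate 3 was the lowest. Mov10l1, a helicase that germ cells need to make piRNAs, had 2 counts in LP and 41 in HP, a ratio of 20.2 with a 95% counting interval of 5.25 to 173. Sycp1, of the synaptonemal complex, had 2.28 to 3.03 CPM in LP and 8.43 to 14.8 CPM in HP. The 4 with an estimate below 0 were Rpl10l, a testis copy of a ribosomal protein gene whose reads may be split with its close relatives, with 52.4 to 136 CPM in LP and 54.9 to 73.3 CPM in HP, Tex19.1, with 196 to 205 CPM in LP and 141.7 to 229.7 CPM in HP, Sycp3 and Hormad1. Their log2 fold changes were -0.66, -0.15, -0.22 and -0.04, and their groups overlapped. Among enzymes of DNA methylation, Dnmt3b, a de novo methyltransferase, had 121, 59.9 and 79.7 CPM in LP and 42.8, 36.7 and 44.9 CPM in HP (log2 fold change -1.07, unadjusted p = 0.00907 in edgeR). Uhrf2, a paralogue of the maintenance cofactor Uhrf1, had 6.3, 12.1 and 3.8 CPM in LP and 30.5, 12.9 and 20.6 CPM in HP (log2 fold change 1.49, unadjusted p = 0.00295 in edgeR). Dnmt1, the maintenance methyltransferase, had a log2 fold change of -0.16 and an upper bound of 2.04-fold, and none of these enzymes was called.

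Of 17 listed targets of beta-catenin 13 were tested and none was called. Of the 13, 10 had an estimate above 0 and 1 below 0, and Dkk1 and Cdx2 had no counts in the 6 libraries. In 3 the groups did not overlap, all higher in HP (7.95% of all genes), and 4 were higher at an unadjusted p under 0.05 (2.87%). Those at an unadjusted p under 0.05 were Sp5, Ccnd2, Cdx1 and T. Summed over the list, levels were 89 to 121 CPM in LP and 142.4 to 199 CPM in HP, with no overlap. These sums include Sp5, named above for its small p, and HP and LP overlap once its CPM is taken out. Sums of other lists also stood apart, among them glycolysis (lower in HP) and neural ectoderm (higher in HP). Ccnd2, a D-type cyclin, had 4.36, 7.26 and 0 CPM in LP and 17.5, 7.63 and 16.8 CPM in HP. T, the mesoderm factor Brachyury, had no counts in LP and 6 in HP. Axin2, the feedback inhibitor of the pathway, had 0, 4.84 and 10.6 CPM in LP and 6.49, 4.77 and 5.33 CPM in HP, with a log2 fold change of 0.19 (SE 0.83). Ccnd1, another D-type cyclin, had 66 to 94.2 CPM in LP and 80.1 to 99.3 CPM in HP, and its interval excluded a change beyond 1.85-fold. The list's median log2 fold change was 0.19 with Dkk1 and Cdx2, which passed the filter through other groups and entered it at 0. Over the 11 genes with counts it was 1.76, or 0.98 with T set at its lower bound of 1.97-fold, a choice made after seeing the data, so the median is no stable measure of this list.

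No change passed the test in the pluripotency network. None of 15 naive and 11 core pluripotency genes had an unadjusted p under 0.05, and all 26 were tested. In 6 of the 26 the groups did not overlap, all of them lower in HP (7.13% of all genes), and in none were they apart with HP higher. These were the naive genes Nr5a2, Tcl1 and Klf2, with log2 fold changes of -0.35, -0.58 and -0.47, and the core genes L1td1, Lin28a and Utf1, with -0.33, -0.88 and -0.45. The upper bound of a change is here the end of the 95% interval of the log2 fold change that lies farther from 0, so that a larger change in either direction was outside the interval. Tbx3, a T-box factor of naive cells, had 422, 295 and 241 CPM in LP and 230, 332 and 405 CPM in HP, with a log2 fold change of 0.01 and an upper bound of 1.65-fold. Sox2 had 718, 512 and 534 CPM in LP and 583, 587 and 661 CPM in HP, with an upper bound of 1.68-fold. The bound was 1.86-fold for Tdgf1, a Nodal coreceptor, 1.90-fold for Esrrb, 2.05-fold for Nanog and 2.07-fold for Zfp42, the gene that carries the reporter. For Klf4 and Pou5f1 it was 2.15-fold and 2.30-fold, and Pou5f1 overlaps the annotated gene Gm19553, with which it may share reads. Zfp42 had 57.7, 89 and 103 CPM in LP and 94.7, 100.2 and 117 CPM in HP, with overlapping groups. Bounds were wider for Lin28a, an inhibitor of let-7 processing (3.83-fold), Dppa5a (3.71-fold) and Utf1 (3.09-fold), whose data allow larger changes. Lin28a had 60.6 to 103 CPM in LP and 27.4 to 48 CPM in HP, groups that did not overlap, at an unadjusted p of 0.097 (edgeR). Summed over the naive genes, levels were 4034 to 4670 CPM in LP and 4150 to 5225 CPM in HP.

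**Figure D3:**
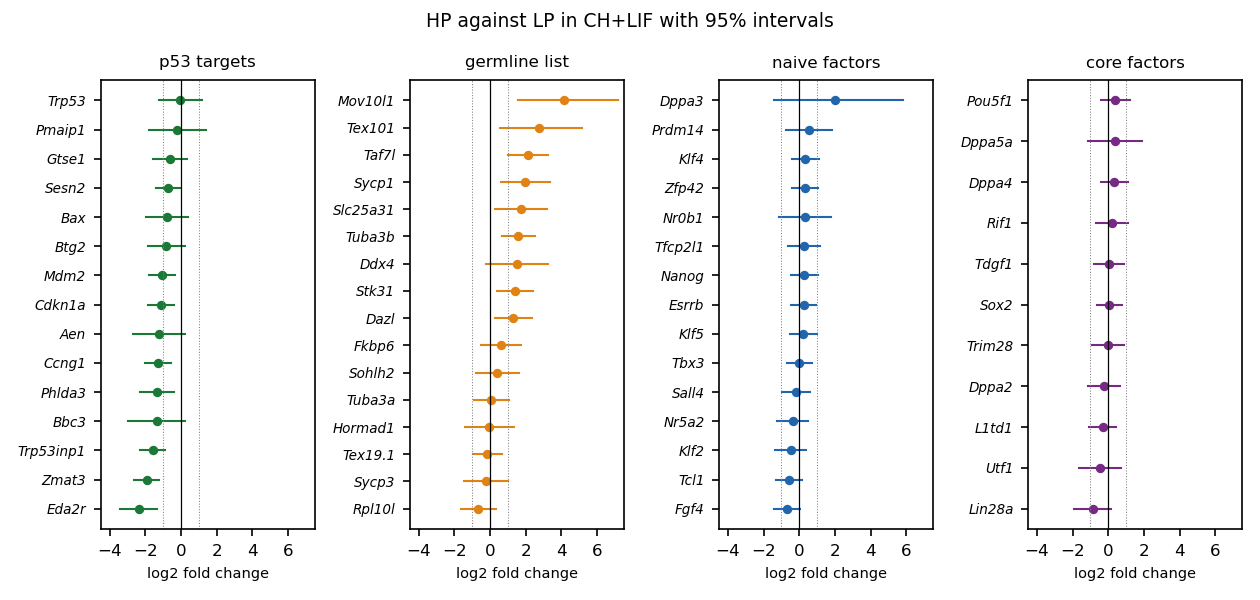
log2 fold change of HP against LP in CH+LIF (horizontal axis) with its 95% interval (line) for each tested gene of 4 lists, with dotted lines at 2-fold in either direction. In the p53 panel all 15 points lie below 0, and 8 germline genes have intervals above 0, whereas the intervals of all 26 pluripotency genes include 0.

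Signalling targets of the LIF and ERK pathways were not called either. Of 15 tested genes of LIF and STAT3, none was called, and the median log2 fold change was -0.44. Of the 15, 10 had an estimate below 0, and 5 had groups that did not overlap, all lower in HP (7.13% of all genes): Socs2, Stat3, Pim3, Junb and Cish. Pim1, a kinase induced by STAT3, had 129.5 to 138 CPM in LP and 116 to 163 CPM in HP, with an upper bound of 1.59-fold. Stat3 itself had 167, 173 and 169 CPM in LP and 85, 73.9 and 113 CPM in HP, and Socs2, a feedback inhibitor of cytokine signalling, had 236 to 360 CPM in LP and 139 to 180 CPM in HP. Both had groups that did not overlap, with unadjusted p-values of 0.0891 and 0.0793 in edgeR. Cish, of the same inhibitor family, had 26 counts in LP and none in HP, so its level was at least 8.79-fold lower in HP, counting 3 for HP over the group (unadjusted p = 0.000941 in edgeR), and it overlaps the annotated gene Gm17041. Among 12 tested ERK targets none had an unadjusted p under 0.05. Their median log2 fold change was -0.43, 9 of the 12 had an estimate below 0, and 3 had groups that did not overlap, all lower in HP (7.13% of all genes). Those were Ier3, an early response gene, with 41.8 to 45.1 CPM in LP and 14.5 to 25.3 CPM in HP, Spry2, a feedback inhibitor of ERK signalling (log2 fold change -0.60), and Etv4 (-0.49). Dusp6, the phosphatase that inactivates ERK, had 33.4, 41.8 and 38.7 CPM in LP and 30.5, 40.6 and 40.4 CPM in HP, with overlapping groups and an upper bound of 2.38-fold.

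Constancy was examined over all 3048 well-counted genes, those with a mean of at least 50 CPM over the 6 libraries. Their log2 fold changes had an SD of 0.37, and 53 of them (1.74%) had an estimate beyond 2-fold in either direction. The median absolute change was 0.22 on the log2 scale, or 1.17-fold. The median upper bound was 1.04 on the log2 scale, or 2.05-fold, and 95% of these genes had an upper bound of at most 3.20-fold. An upper bound below 2-fold, from an unadjusted interval, held for 1335 of the 3048 genes (43.8%). This count moved with the libraries: it was 731, 787 and 750 without HP replicate 1, 2 or 3, 944, 685 and 779 without LP replicate 1, 2 or 3, and 2281 in a fit of the 6 libraries alone. When each gene was instead tested for a change inside 2-fold in either direction, with Benjamini-Hochberg adjustment over all genes, 0 of the 3048 (0%) passed. By this adjustment no single gene was shown constant at that level in the fit of all libraries. It also covered the genes below 50 CPM, and an adjustment over the well-counted genes alone was not made. The bound narrowed with level: the median was 6.21-fold below 5 CPM, 3.16-fold from 5 to 20 CPM, 2.28-fold from 20 to 50 CPM and 2.02-fold from 200 to 500 CPM. It widened to 2.17-fold above 500 CPM.

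These bounds rested on the spread of all 7 groups. In a fit of the 6 libraries alone the adjusted test placed 2159 genes within 2-fold and the median bound was 0.82 on the log2 scale. Without 2i+LIF LP replicate 1 and 2i+LIF PO replicate 1, which stood apart from their own replicates, it placed 1640. The median SD of log2 CPM among replicates was 0.26 in CH+LIF HP and 0.33 in CH+LIF LP, against 0.54 in 2i+LIF LP and 0.55 in 2i+LIF PO.

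Some of the tightest bounds among well-counted genes were the following. Igf2bp3, an RNA-binding protein, had 167, 136 and 119 CPM in LP and 162, 118 and 145.5 CPM in HP, with an upper bound of 1.49-fold. Close to it were Tacc3, a spindle protein (1.51-fold), Rcn1 (1.52-fold), Hnrnpm, a splicing factor (1.53-fold), and Eif5, a translation initiation factor (1.53-fold). Ppp1r15b, Caprin1, Mcmbp and Cluh also had bounds of at most 1.55-fold. Of 32 genes of DNA replication and mitosis the median log2 fold change was -0.01, and 13 of its 28 well-counted members had a bound under 2-fold. The same held for 12 of 16 in cholesterol and fatty acid synthesis, 4 of 8 in polycomb repressive complex 2, 13 of 26 in nuclear-coded oxidative phosphorylation, 12 of 76 among cytosolic ribosomal proteins, 4 of 13 in glycolysis, 4 of 13 among common reference genes and 0 of 6 among mitochondrially encoded genes, beside 43.8% of all well-counted genes in the same fit. These shares rest on that fit and were not recomputed without single libraries. None of these lists had a called gene. Of the 17 tested reference genes 5 had groups that did not overlap with HP lower (7.13% of all genes) and 1 with HP higher (7.95%).

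At the other end, the data left room for large changes in a few well-counted genes. After Crxos, the upper bound was largest for 1700013H16Rik, with 32, 28.5 and 15.2 CPM in LP and 153.8, 117 and 64 CPM in HP (10.9-fold). It was 6.42-fold for mt-Co1, a mitochondrially encoded subunit of cytochrome oxidase, with 317 to 696 CPM in LP and 1099 to 1585 CPM in HP. For Ldha, lactate dehydrogenase, it was 6.30-fold. Ldha had 1684, 528 and 393 CPM in LP and 207, 369 and 321 CPM in HP, and LP replicate 1 stood far above the rest. The mitochondrially encoded genes mt-Nd2, mt-Cytb and mt-Nd4 had bounds of 6.16-fold to 6.20-fold and were highest in HP replicate 3, the library with 9.84% mitochondrial counts. All 11 tested mitochondrially encoded genes had an estimate above 0, with a median of 0.84. Of these, 2 were higher at an unadjusted p under 0.05 (2.87% of all genes) and 4 had groups that did not overlap, higher in HP (7.95%), and none was called. With mitochondrial genes and Gm42418, a locus overlapping ribosomal RNA, left out before scaling, Crxos was still the gene called.

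**Figure D4:**
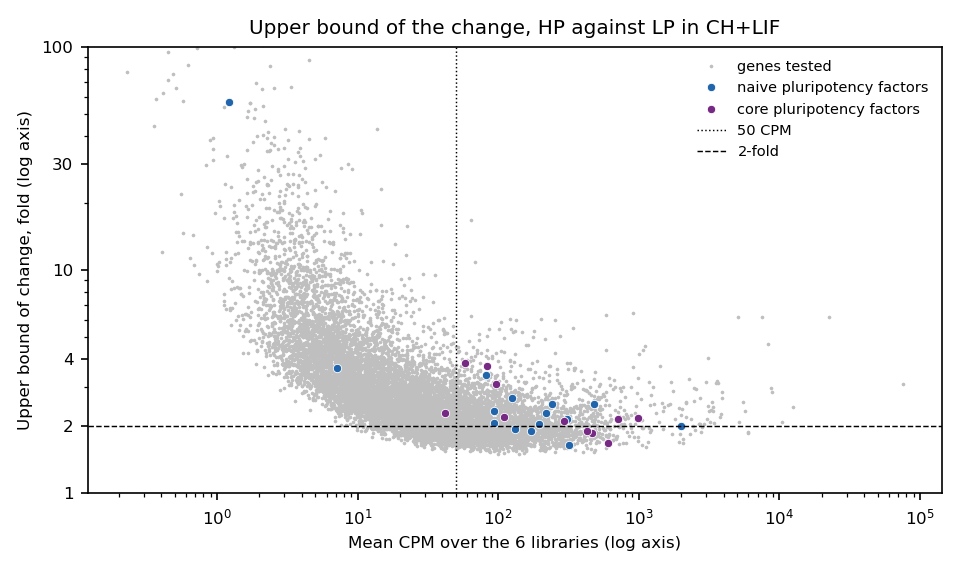
Upper bound of the change of HP against LP in fold (vertical log axis, ending at 100) by mean CPM over the 6 CH+LIF libraries (horizontal log axis) for genes tested (grey), with naive (blue) and core (purple) pluripotency genes. The dotted line marks 50 CPM and the dashed line 2-fold, and the bound falls from a median of 6.21-fold below 5 CPM to about 2-fold in well-counted genes.

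Whole chromosomes showed no called shift. The median of gene-centred log2 CPM of each of 20 chromosomes with at least 100 tested genes, less that of the autosomes, was compared between HP and LP with limma, and 0 were called, the smallest adjusted p being 0.851 and the smallest unadjusted p 0.0561, for chromosome 6. Also, no gene had 0 counts in one group and at least 30 in the other.

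HP and LP were also compared in the other media, and the difference in spread between media was not tested. HP against LP gave 1060 called genes in LIF (9.96%) and 391 in 2i+LIF (3.67%), against 1 in CH+LIF. Over the same 3048 well-counted genes, estimates beyond 2-fold numbered 823 in LIF (27%) and 314 in 2i+LIF (10.3%), with median standard errors of 0.385 and 0.383 against 0.383 in CH+LIF. Correlations of log2 CPM between an HP and an LP library were 0.884 to 0.937 in CH+LIF, close to the 0.898 to 0.936 among LP and the 0.926 to 0.947 among HP replicates, and were 0.796 to 0.881 in LIF and 0.715 to 0.902 in 2i+LIF, where the range overlapped that of CH+LIF. The contrasts of the 3 media share no library. Of 567 genes that rose in LIF (5.33%), 441 had a positive estimate in CH+LIF, with a median of 0.35 against 1.84 in LIF, and of 493 that fell there (4.63%), 375 had a negative one, with a median of -0.28 against -1.75. For the 173 genes that rose (1.63%) and the 218 that fell (2.05%) in 2i+LIF, the estimate in CH+LIF had the same sign for 139 and 182. Over all 10643 genes tested, 5300 had a positive estimate in CH+LIF and 5333 a negative one. Across these genes the log2 fold changes in CH+LIF correlated at r = 0.33 with those in LIF and 0.35 with those in 2i+LIF.

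**Figure D5:**
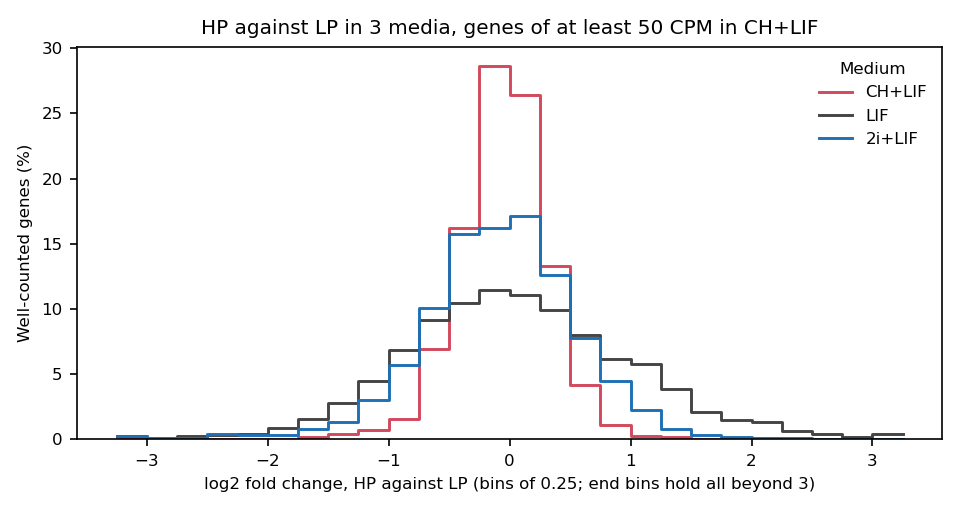
Share of the 3048 well-counted genes (vertical axis, percent) by log2 fold change of HP against LP (horizontal axis, bins of 0.25) in CH+LIF (red), LIF (black) and 2i+LIF (blue). In CH+LIF 1.74% of genes lie beyond 2-fold, against 27% in LIF and 10.3% in 2i+LIF.

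A direct test of the difference between media called 45 genes (0.423%) for LIF against CH+LIF and 2 (0.0188%) for 2i+LIF against CH+LIF. Targets of ERK were among the former. Dusp6 had a log2 fold change of -5.78 in LIF and -0.03 in CH+LIF (interaction adjusted p = 0.0301 in edgeR), and Etv4, an ETS factor downstream of FGF, had -3.22 and -0.49 (adjusted p = 0.0189). Dnmt3l, the cofactor of de novo methylation, had -6.37 in LIF and -0.98 in CH+LIF (adjusted p = 0.0103), where it stood at 132 to 199 CPM in LP and 74 to 107 CPM in HP. Utf1, a chromatin protein of pluripotent cells, had -4.55 in LIF and -0.45 in CH+LIF (adjusted p = 0.0459). Cdkn1a had 1.5 in LIF and -1.11 in CH+LIF (adjusted p = 0.021), opposite signs for the same gene. The calls against 2i+LIF were Tdgf1 and Adam23, whose groups overlapped in CH+LIF. Tdgf1 had 530, 504 and 327 CPM in LP and 424, 615 and 376 CPM in HP of CH+LIF, against a 2i+LIF mean of 391 ± 44.3 CPM for LP and 36.5 ± 27.7 CPM for HP (interaction adjusted p = 0.0219). Adam23, a cell surface protein, had 165, 136 and 95.7 CPM in LP and 50.6, 116 and 118 CPM in HP of CH+LIF, against 79.9 ± 48 CPM in LP and no counts in HP of 2i+LIF (adjusted p = 0.00471). Leaving out 1 library moved the count for LIF to between 5 and 42 and that for 2i+LIF to between 1 and 26, the highest without 2i+LIF LP replicate 1.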

How the data were processed

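Per the submitters' processing notes, bcl2fastq, STAR 2.6.0a, HTSeq and the mm10 genome build were used. The annotation, the strand setting and the filters are not given in the sources used here. The authors deposited whole-number counts of reads per Ensembl gene, not normalized, for 31053 IDs in each library, made per the labels' protocols from 125 ng of total RNA. Rows that name no gene were left out: of all entries, 51.1 to 61.7% were gene counts in the 6 libraries. Gene counts were 1184797 to 2084432. Gene symbols and coordinates were taken from GENCODE M21 (GRCm38), which held 31011 IDs. Genes that overlap or have near-identical copies may share or lose reads.

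All 21 libraries entered 1 fit (edgeR 4.0.16, quasi-likelihood, TMM, filterByExpr, a term for each of 7 groups, 14 residual degrees of freedom), two-sided, Benjamini-Hochberg adjusted over 10643 genes, threshold 0.05. Intervals used 26.2 total degrees of freedom. Log2 CPM used a prior count of 2 and chromosomes limma 3.58.1. Every pair of CH+LIF replicates differed beyond counting noise (chi-square per degree of freedom at least 5.21). A count of 0 was taken to allow 3 counts, and counting intervals cover counting error only. Named genes were those called, the 10 of smallest p in each direction with a mean of at least 5 CPM in either group and no overlap, the 10 smallest and largest bounds, list genes, the 5 leading genes of each interaction and those most like Crxos. Some of these are not reported here. The 27 lists of 512 genes, of which 5 symbols were not found, and the comparison itself were chosen with earlier results of these data known. Alternatives included DESeq2 1.42.0, limma-voom, other scaling and filters, thinning, a replicate block and leaving out libraries. The steps were tested on simulated data.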

Additional observations from a re-analysis of the deposited data

Results flagged for a closer look

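The change of HP against LP differed between media for 45 genes when LIF was set against CH+LIF, and for 2 genes when 2i+LIF was set against CH+LIF, by the interaction term of the edgeR fit over all libraries. The 45 became 19 without CH+LIF HP replicate 1, 11 without HP replicate 2, 6 without HP replicate 3, 42 without LP replicate 1, 13 without LP replicate 2 and 5 without LP replicate 3. They became 349 without the 2 libraries that stood apart, 171 without the filter on low counts and 1.35% of genes tested with DESeq2, against 0.423%. Without LIF HP replicate 1, 2 or 3 they became 19, 8 and 14, and without LIF LP replicate 1, 2 or 3 they became 13, 13 and 14.

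The difference is given below as the log2 fold change in LIF less that in CH+LIF. Krtdap, a keratinocyte differentiation gene, had the smallest p, with a difference of 7.54: it had 0.481 ± 0.833 CPM in LIF LP and 295 ± 88.1 CPM in LIF HP, against 4.81 ± 3.18 and 12.6 ± 4.32 CPM in CH+LIF. Trpm1, a cation channel gene, differed by 3.87 and was higher in HP in both media. Ccnd2 differed by -6.24, with estimates of opposite sign, -4.48 in LIF and 1.76 in CH+LIF. For Enox1 the difference was -5.29 and for Zfp423, a zinc finger gene, -3.64. Adam23 differed by -6.29.

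Among genes of the lists, the difference was -5.75 for Dusp6, -6.11 for Egr1 and -2.73 for Etv4, all ERK targets. It was -5.40 for Dnmt3l, -4.10 for Utf1 and -1.98 for Kif11, a mitotic kinesin. D16Ertd472e differed by -2.34 and was lower in HP in both media. Positive differences were 2.61 for Cdkn1a and 2.38 for Tfap2c, a transcription factor of trophoblast and germ cells.

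Against 2i+LIF, the fitted difference was -9.79 for Adam23, which depends on the prior count because 2i+LIF HP held no counts of it, and -3.47 for Tdgf1.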

How the results depend on the processing

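The call of Crxos held under all 12 alternatives that kept the 6 libraries, and its log2 fold change was 2.83 to 3.37 with 1 library left out. The number of genes called was 21 without a filter on low counts, 15 in the 6 libraries alone, 15 with DESeq2, 9 without the 2 libraries that stood apart, 3 with edgeR's newer quasi-likelihood method and 0 to 2 with 1 library left out. Beside the 0 with HP replicate 1 or any LP replicate left out, at least 378 genes had an unadjusted p under 0.05. Well-counted genes shown within 2-fold numbered 2159 in the 6 libraries alone, 1640 without the 2 libraries that stood apart and 42 with DESeq2, and 0 under the other alternatives. Unadjusted bounds below 2-fold held for 685 to 944 genes with 1 library left out. Genes that differed between LIF and CH+LIF were 0.423% of those tested, against 3.18% without those 2 libraries, 0.903% without the filter, 1.35% with DESeq2, 0.122% with limma-voom and 0.045 to 0.382% with 1 library left out. Between 2i+LIF and CH+LIF the share was 0.0188%, against 0.356%, 0.254%, 0.245%, 0.0094% and 0.00901 to 0.235%. The cause was not tested. Zmat3 and Sp5 passed in 6 and 7 of 18 alternatives. Only named genes with an unadjusted p under 0.05 in the main fit were followed through the alternatives, and none of these changed sign. Several untested list medians near 0 changed sign, among them -0.20 to 0.48 for Crxos neighbours and -0.06 to 0.06 for DNA replication and mitosis.

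Whether replicate numbers pair the libraries is not settled. Deviations from the group means of same-numbered HP and LP libraries correlated at -0.15, 0.07 and -0.15, and those of differently numbered ones at -0.05 to 0.18. Deviations within a group sum to 0, so these values are tied to each other and cannot exclude pairing. With the replicate number as a block, 3 genes were called, both in the fit of all libraries and in the 6 alone. Genes below 5 CPM had a median bound of 6.21-fold.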

Other observations

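Of 30 listed imprinted genes 18 were tested in CH+LIF and none was called. Their log2 fold changes ran from -2.03 to 2.34 with a median of 0.30. At an unadjusted p under 0.05, 3 were higher (Plagl1, Zrsr1 and Igf2r; 2.87% of all genes) and 1 lower (Nnat; 2.5%). Groups did not overlap for 5 that were higher (7.95% of all genes) and 1 that was lower (7.13%), and 2 of the 5 well-counted members had an upper bound under 2-fold (43.8%). Plagl1, an imprinted zinc finger gene, had 5.33, 6.05 and 10.6 CPM in LP and 41.5, 32 and 36.6 CPM in HP (log2 fold change 2.34, SE 0.58, adjusted p = 0.273 in edgeR), and its groups did not overlap. Zrsr1, an imprinted splicing factor gene, had 30.04, 49.6 and 53.2 CPM in LP and 78.5, 81.1 and 107 CPM in HP. Peg3 and Gnas had upper bounds of 2.02-fold and 1.73-fold. Meg3, of the Dlk1-Dio3 domain, had 1120, 645 and 418 CPM in LP and 729, 911 and 1647 CPM in HP, with an upper bound of 3.67-fold.

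Of 17 tested genes of the ATF4 stress list 9 were above 0 and 8 below, with 1 higher (2.87% of all genes) and 1 lower (2.5%) at an unadjusted p under 0.05. Groups did not overlap for 1 that was higher (7.95%) and 3 that were lower (7.13%). The higher one, Ddit3, the transcription factor CHOP, had 17.4, 16.3 and 17.5 CPM in LP and 79.2, 45.8 and 31.2 CPM in HP (log2 fold change 1.61, unadjusted p = 0.00149 in edgeR). Atf4 itself had an upper bound of 2.04-fold. The neurofilament gene Nefm had 50.9, 47.2 and 79.7 CPM in LP and 155.7, 169 and 159 CPM in HP, and Tubb3, a neuronal tubulin, had 84.8, 110.2 and 117 CPM in LP and 39.6, 42 and 42.7 CPM in HP, opposite directions within the neural list. Of 12 tested epithelial adhesion genes 7 were below 0 and 5 above, with a median of -0.15. Epcam, an epithelial adhesion protein, had 12.1, 33.3 and 28.1 CPM in LP and 64.9, 61.1 and 45.7 CPM in HP, while Cdh1, which codes for E-cadherin, had an upper bound of 2.07-fold. None of these genes passed the adjusted threshold. Summed over 14 genes of the 2-cell-like state, none of which passed the filter on low counts, levels were 0 to 1.82 CPM in LP and 4.29 to 12.3 CPM in HP.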
